A study of Homo sapiens with 4 samples.

Results

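The comparison described here is of KYSE410 cells exposed to tumour necrosis factor α (TNFα) for 24 h against the same cells given only the solvent, phosphate-buffered saline (PBS). KYSE410 is an established line of human oesophageal squamous cell carcinoma, grown in RPMI 1640 medium with fetal bovine serum, penicillin and streptomycin. For each condition 1 single-colour NimbleGen array was hybridised with Cy3-labelled cDNA made from total RNA. The members are the 17185 genes that carry a symbol among the 45033 probe sets of each array, and a gene with several probe sets took the values of the set with the highest mean over the 4 arrays of the series. Values are RMA intensities (robust multi-array averages on a linear scale), and a difference is log2 of the TNFα value minus log2 of the PBS value. A gene is called higher or lower where its values differed by 2-fold or more and the brighter of them was at or over a floor of 260, the median level of all genes (8.02 on the log2 scale). There are no replicates, with 1 array a side, and the values that follow carry neither an error nor a p-value. Their precision is limited by the number of arrays. The dose of TNFα is not given in the sources used here.

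An array of cells given interleukin 1β (IL1β) for 24 h is used only as a mark. Its comparison shares the single PBS array with that of TNFα, so a difference from PBS seen on both cytokine arrays may come in part from the PBS array. A called gene is described as shared with IL1β where the IL1β array also differed at least 2-fold from PBS in the same direction, and as close to PBS where the IL1β value lay within 0.5 log2 of PBS. A set of 5000 random-sequence control probes read 54.1 with PBS, 55.8 with TNFα and 56.1 with IL1β. Values under 2 times that set are near background, and a fold against such a value is given as at least the fold over that limit.

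The label of the cells was checked against marker genes. All 22 squamous epithelial markers measured reached the floor intensity with PBS and 21 did with TNFα, and their summed intensity was 224394 with PBS, 266158 with TNFα and 232900 with IL1β. The basal keratin KRT5 read 49361 with PBS, 58314 with TNFα and 48523 with IL1β, and the squamous lineage factor TP63 read 986 with PBS, 949 with TNFα and 933 with IL1β. Markers of other cells gave signal as well. The floor is the median level of all genes, and the median gene read 268 with PBS and 263 with TNFα. Reaching it is therefore common and does not show that a cell type is present. Of 17 erythroid and platelet markers, for example, 10 reached it with PBS and 9 with TNFα. Of 25 cardiac and skeletal muscle markers 15 reached the floor intensity with PBS and 14 with TNFα, with sums of 64104, 80982 and 88455 on the PBS, TNFα and IL1β arrays. The cardiac myosin MYH6 read 9469.8 with PBS, 14709 with TNFα and 17101 with IL1β, bright on all 3 arrays for a muscle gene under this label. The list was mixed: 8 of its 25 genes with PBS, 9 with TNFα and 7 with IL1β were near background. ACTN2, MYOZ2, CASQ2, MYH1 and MYH2 were near background on all 3 arrays. The probes of these genes were not examined. Of 27 neutrophil and monocyte markers 6 reached the floor intensity with PBS, 15 with TNFα and 14 with IL1β, and their sum was 12503 with PBS, 31147 with TNFα and 24981 with IL1β. This list moved with the comparison, and its part in the results below was not tested. Within it the myeloid genes MPO, ITGAM and CXCR1 were near background with PBS and with TNFα, whereas LYZ, the lysozyme gene, read 6917 with PBS, 5600.2 with TNFα and 10389.6 with IL1β. Bulk RNA cannot tell more cells of a type from more RNA per cell.

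**Figure D1:**
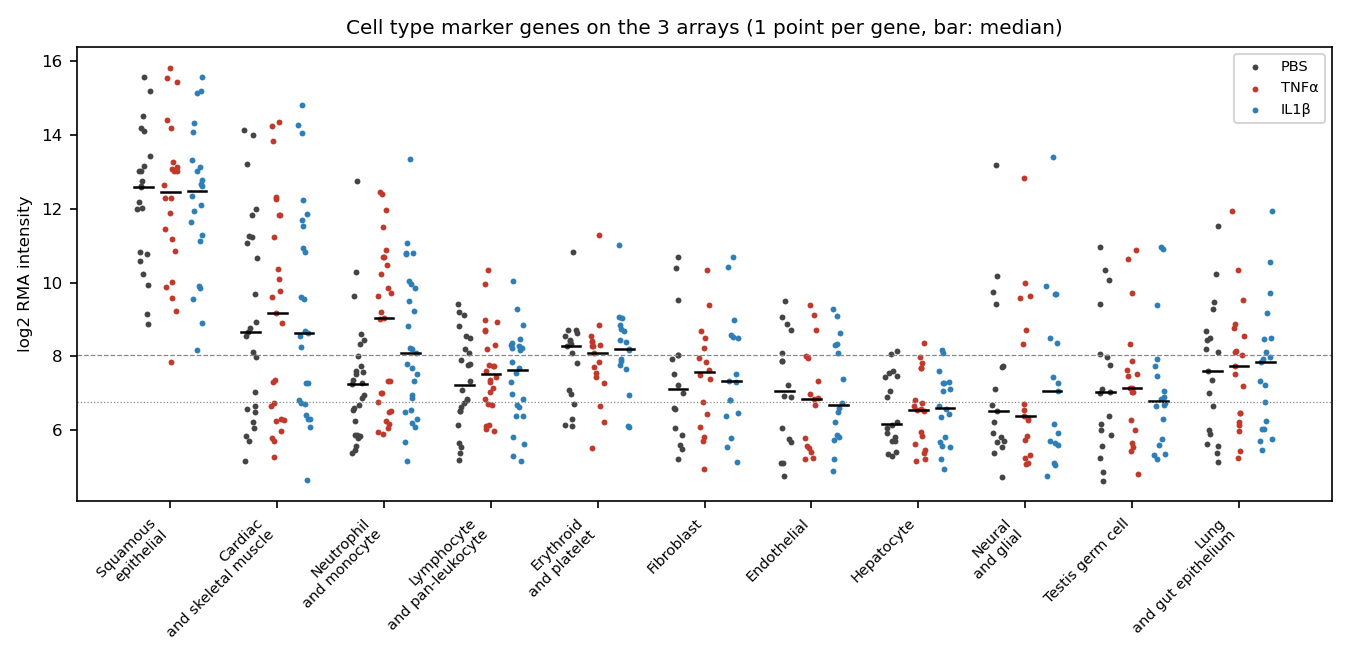
Level of each marker gene (1 point per gene, log2 RMA intensity) on the PBS, TNFα and IL1β arrays for the squamous list and 10 lists of other cell types, with a bar at the median, a dashed line at the floor of 8.02 and a dotted line at the near-background limit of the PBS array. The squamous genes sit highest on all 3 arrays, cardiac and skeletal muscle genes spread over the whole range, and the neutrophil and monocyte genes sit higher on both cytokine arrays than on the PBS array.

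TNFα is a cytokine made mainly by macrophages and other immune cells. It binds the receptor TNFRSF1A on epithelial cells, which gathers the adaptors TRADD and TRAF2, the kinase RIPK1 and the ubiquitin ligases BIRC2 and BIRC3, and these switch on the IκB kinases. The kinases mark NFKBIA and other inhibitors for destruction, NF-κB dimers enter the nucleus, and genes for chemokines, cytokines, adhesion molecules, survival factors and inhibitors of the pathway itself are transcribed. A second wave works through IRF1, STAT factors and interferon-stimulated genes.

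Promoters of the genes on which the inflammatory results turn are shown first, because genes with like sequences read differently on these arrays. The RefSeq promoter table (GRCh38.p14, 250 bases before to 50 after each start site) was searched upstream of the start site for the letters GGANTTNCC on both strands, a form of the κB element that NF-κB binds. It held a match in 3.67% of 35116 promoters. Counted by gene, matches stood in 4.96% of the 7681 genes at the floor that the table lists, in 24 of 261 higher genes (9.2%) and in 18 of 233 lower genes (7.73%). The match is in capitals, with 20 bases on each side, read along the strand of the gene. The growth-related chemokines CXCL1, CXCL2 and CXCL3 and the chemokine CXCL8 carry the same 9 letters. The windows are chr4:73869295-73869343 (plus strand) for CXCL1, chr4:74099244-74099292 (minus) for CXCL2, chr4:74038739-74038787 (minus) for CXCL3 and chr4:73740458-73740506 (plus) for CXCL8.
CXCL1: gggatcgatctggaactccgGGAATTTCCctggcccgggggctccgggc
CXCL2: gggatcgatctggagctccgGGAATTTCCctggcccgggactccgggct
CXCL3: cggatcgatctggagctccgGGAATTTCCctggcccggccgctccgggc
CXCL8: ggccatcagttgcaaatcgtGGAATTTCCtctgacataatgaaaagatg
The cytokine gene IL6 (chr7:22727108-22727156, plus) and the adhesion gene ICAM1 (chr19:10270914-10270962, plus) were higher with TNFα. The inhibitor genes NFKBIA (chr14:35404802-35404850, minus), TNFAIP3 (chr6:137867172-137867220, plus) and BIRC3 (chr11:102317329-102317377, plus) were not. In ICAM1, NFKBIA and TNFAIP3 the match shown is on the opposite strand. NFKBIA has another match, not shown, on the strand of the gene (chr14:35404963-35404999).
IL6: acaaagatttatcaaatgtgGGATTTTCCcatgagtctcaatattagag
ICAM1: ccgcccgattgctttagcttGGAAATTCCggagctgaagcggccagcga
NFKBIA: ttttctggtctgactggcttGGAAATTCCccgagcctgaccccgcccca
TNFAIP3: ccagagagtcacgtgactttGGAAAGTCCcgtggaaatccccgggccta
BIRC3: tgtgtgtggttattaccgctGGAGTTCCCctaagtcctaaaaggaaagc
A second motif, 2 copies of TTTC separated by any 2 bases, is the core of the interferon-stimulated response element, and was searched on both strands. Matches of the 2 motifs can share bases. It stood in 3.02% of promoters, in 3.24% of genes at the floor, in 19 of 261 higher genes (7.28%) and in 6 of 233 lower genes (2.58%). The antiviral genes IFI6 (chr1:27672278-27672327, minus) and IFIH1 (chr2:162318808-162318857, minus) hold it in more than 1 place. For each gene 1 match is shown, that of IFI6 on the opposite strand. IFIH1 also has a match on the opposite strand (chr2:162318685-162318725), which is not shown.
IFI6: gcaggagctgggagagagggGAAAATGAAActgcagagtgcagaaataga
IFIH1: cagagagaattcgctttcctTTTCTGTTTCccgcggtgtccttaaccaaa
A match describes the letters of the window only and does not show that a factor binds there.

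Of 9419 genes that reached the floor on the PBS or TNFα array, 317 were higher with TNFα (3.37%) and 320 were lower (3.4%), while 8782 (93.2%) differed less than 2-fold. These percentages are the background against which the counts of each gene group are read. A gene passed the floor through its brighter value. A gene dim with PBS was thus counted only where TNFα was bright, and the reverse held for lower genes. The share of a group at the floor that was called therefore depends in part on the differences themselves, and is no test of the group. The median difference was -0.03 over all 17185 genes and -0.07 over those at the floor, and the central 90% of genes at the floor lay between -0.86 and 0.82. With near-background values set to their limit, the higher genes had a median fold of 2.56, with 102 at least 3-fold and 16 at least 8-fold apart. The lower genes, counted in the same way, had a median fold of 2.51, with 90 at least 3-fold and 1 at least 8-fold apart. Just inside and just outside the threshold lay log2 differences of 1.0018 and 0.9996 among the higher genes, and of 1.0034 and 0.9998 among the lower. Dim genes were called more often: of the 2356 genes with the lowest brighter values 5.48% were higher and 5.81% lower, against 2.34% and 1.32% of the 2355 brightest. In 44 of the higher and 43 of the lower genes the dimmer value was near background.

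**Figure D2:**
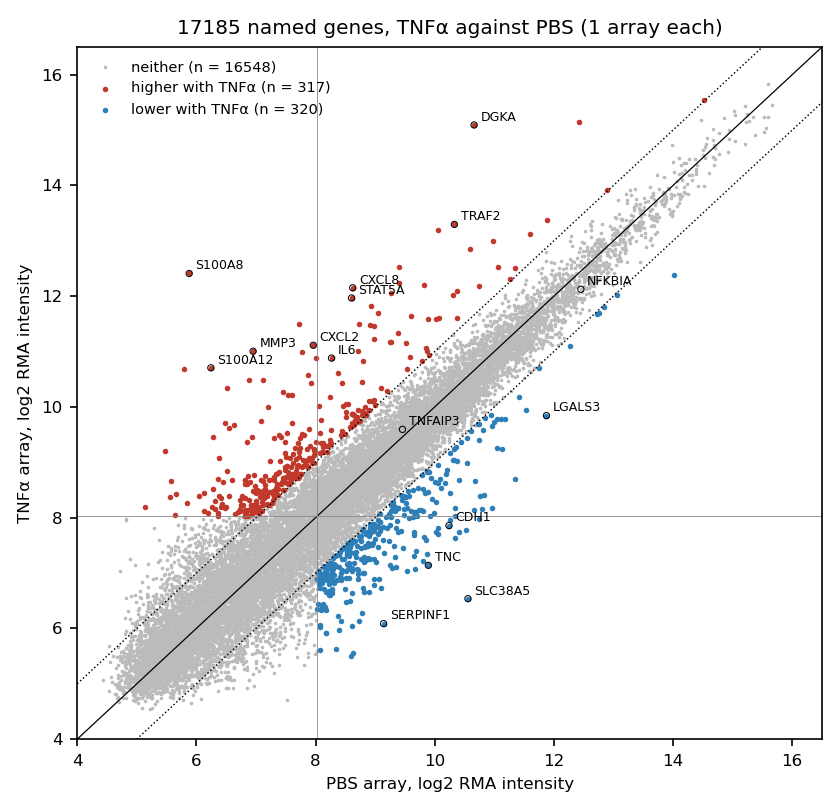
Level of each of 17185 named genes with PBS (horizontal axis) and with TNFα (vertical axis), both as log2 RMA intensity on 1 array each, with the line of equality, dotted lines at 2-fold and grey lines at the floor of 8.02. The 317 higher genes (red) include a few far above the diagonal such as S100A8 and DGKA, the 320 lower genes (blue) lie nearer to it apart from SLC38A5, and the inhibitors NFKBIA and TNFAIP3 sit on or near the diagonal.

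The receptor and its immediate partners were measured in a list of 30 genes, of which 24 reached the floor. In this group 2 genes were higher and 2 lower, with a median difference of -0.11. TRAF2, the adaptor that brings ubiquitin ligases to the receptor, read 1287 with PBS, 10052 with TNFα and 3729.8 with IL1β, a 7.81-fold difference between TNFα and PBS. The IL1β value of TRAF2 lay between the others, though also over 2-fold above PBS. ADAM17, the protease that sheds TNFα and its receptors from the cell surface, read 1082 with PBS, 3117 with TNFα and 2209 with IL1β and was 2.88-fold higher with TNFα. Lower were TNFRSF1B, the second TNFα receptor, and TRAF5, another adaptor of the family. TNFRSF1B read 1226 with PBS, 348 with TNFα and 213 with IL1β, 3.52-fold lower with TNFα, and TRAF5 read 544 with PBS, 218 with TNFα and 219 with IL1β, 2.50-fold lower. Both stood lower with IL1β as well, so all 4 of these differences from PBS are shared. The main receptor TNFRSF1A was nearly level at 1242 with PBS, 1186 with TNFα and 1074 with IL1β. TRADD, which docks on its death domain, had a difference of -0.10, and the kinase RIPK1 one of 0.65, below the 2-fold limit. The ligand gene TNF itself was dim, at 199 with PBS, 172 with TNFα and 334 with IL1β, and its TNFα value was the lowest of the 3.

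No NF-κB subunit, IκB protein or IκB kinase was called among 16 measured genes, 12 of them at the floor, and the median difference was -0.08. NFKBIA, the inhibitor IκBα and the brightest of the list, read 5607 with PBS, 4463 with TNFα and 4879.6 with IL1β, so both cytokine arrays lay slightly under PBS. The precursor subunits NFKB1 and NFKB2 differed by -0.28 and -0.06, the transactivating subunit RELA by -0.21 and the alternative subunit RELB by -0.13. The κB letters stand in 7 of the 13 genes of this list with a promoter entry, the largest share of any list (53.8%). Among 17 genes of feedback and survival that NF-κB is known to induce, 3 were higher and none lower, with a median of 0.02. TNIP1, a ubiquitin-binding inhibitor that works with A20, read 1319 with PBS, 4359 with TNFα and 4347 with IL1β, 3.30-fold higher with TNFα. BCL2A1, a BCL2-type survival protein, read 1272 with PBS, 4141 with TNFα and 4566 with IL1β, 3.26-fold higher, and TNFAIP8, an inhibitor of apoptosis, read 1041 with PBS, 3079.8 with TNFα and 2575 with IL1β, 2.96-fold higher. All 3 reached about the same level on both cytokine arrays. The classical feedback genes did not follow them. TNFAIP3, which encodes A20, read 703 with PBS, 773 with TNFα and 763 with IL1β, and BIRC3, the ubiquitin ligase cIAP2, read 394 with PBS, 364 with TNFα and 362 with IL1β, so neither was called. The mitochondrial superoxide dismutase SOD2 read 1640.1 with PBS, 2877 with TNFα and 2478 with IL1β, short of 2-fold at a difference of 0.81. A dimmer second probe set of SOD2 read 747 with PBS, 2105 with TNFα and 1834 with IL1β, over 2-fold higher with TNFα.

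Chemokines gave 4 higher genes of the 6 that reached the floor, out of 21 measured, and none lower. Since most members were dim, the median over all of them was -0.10, and CXCL2, CCL3 and CCL5 were under the floor with PBS. CXCL8, interleukin 8, which attracts neutrophils, read 394 with PBS, 4547 with TNFα and 2051 with IL1β, an 11.5-fold difference between TNFα and PBS. CXCL2, a second neutrophil attractant, read 249 with PBS, 2215 with TNFα and 1746 with IL1β, 8.89-fold higher with TNFα. In both the TNFα value was the highest of the 3, and the PBS value lay far under both cytokines. CCL3, a macrophage inflammatory protein that draws monocytes and T cells, read 136 with PBS, 862 with TNFα and 466 with IL1β, 6.35-fold higher, and CCL5, which draws T cells, read 196 with PBS, 1195 with TNFα and 1118 with IL1β, 6.11-fold higher. CCL5 was nearly equal with TNFα and IL1β, whereas CCL3 was lower with IL1β. CXCL1, whose window differs little from that of CXCL2, read 525 with PBS, 427 with TNFα and 449 with IL1β, with the PBS value highest. CXCL3 was near background on all 3 arrays (86.0, 80.4 and 87.5 in the same order), as were the monocyte attractant CCL2 (62.0, 54.7 and 56.6) and the epithelial chemokine CCL20 (86.4, 71.4 and 59.6). CXCL2 and CXCL3 are close copies in sequence, so the assignment of signal between these genes depends on the probes, which were not examined. The κB letters stand in 8 of the 17 chemokine genes with a promoter entry.

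Among 27 cytokine and colony-stimulating factor genes, 4 of the 12 at the floor were higher and 1 was lower, with a median of -0.13. IL6, the acute phase cytokine, read 308 with PBS, 1886 with TNFα and 1427 with IL1β, 6.12-fold higher with TNFα. IL1B, which encodes interleukin 1β itself, read 213 with PBS, 691 with TNFα and 759.7 with IL1β, 3.24-fold higher. LTB, lymphotoxin β of the TNF family, read 280.3 with PBS, 652 with TNFα and 559.8 with IL1β, 2.33-fold higher, and IL32, a cytokine of inflamed tissue, read 440.1 with PBS, 977 with TNFα and 951 with IL1β, 2.22-fold higher. For each of the 4 both cytokine arrays were clearly above PBS. IL1RN, the antagonist that blocks the interleukin 1 receptor, went the other way at 802 with PBS, 206 with TNFα and 197 with IL1β, 3.90-fold lower with TNFα. IL1B and its antagonist thus differed from PBS in opposite directions on both cytokine arrays. Interleukin 1α (IL1A) was near background at 65.5, 55.7 and 41.4 with PBS, TNFα and IL1β.

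Cytokine receptors had 4 higher genes and none lower among 14 at the floor (29 measured), with a median of 0.27. Of the 4, IFNGR1 and CXCR4 were under the floor with PBS. IL10RB, a shared chain of the receptors for interleukin 10, interleukin 22 and type III interferon, read 485 with PBS, 3627 with TNFα and 4219.6 with IL1β, 7.47-fold higher with TNFα. Both chains of the interferon γ receptor were higher. IFNGR1 read 213 with PBS, 613 with TNFα and 591 with IL1β, 2.88-fold higher, and IFNGR2 read 618 with PBS, 2306 with TNFα and 2692 with IL1β, 3.73-fold higher. CXCR4, the receptor for the stromal chemokine CXCL12, read 185 with PBS, 454 with TNFα and 734 with IL1β, 2.45-fold higher. All 4 were shared with IL1β, and in IL10RB, IFNGR2 and CXCR4 the IL1β value was the highest.

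**Figure D3:**
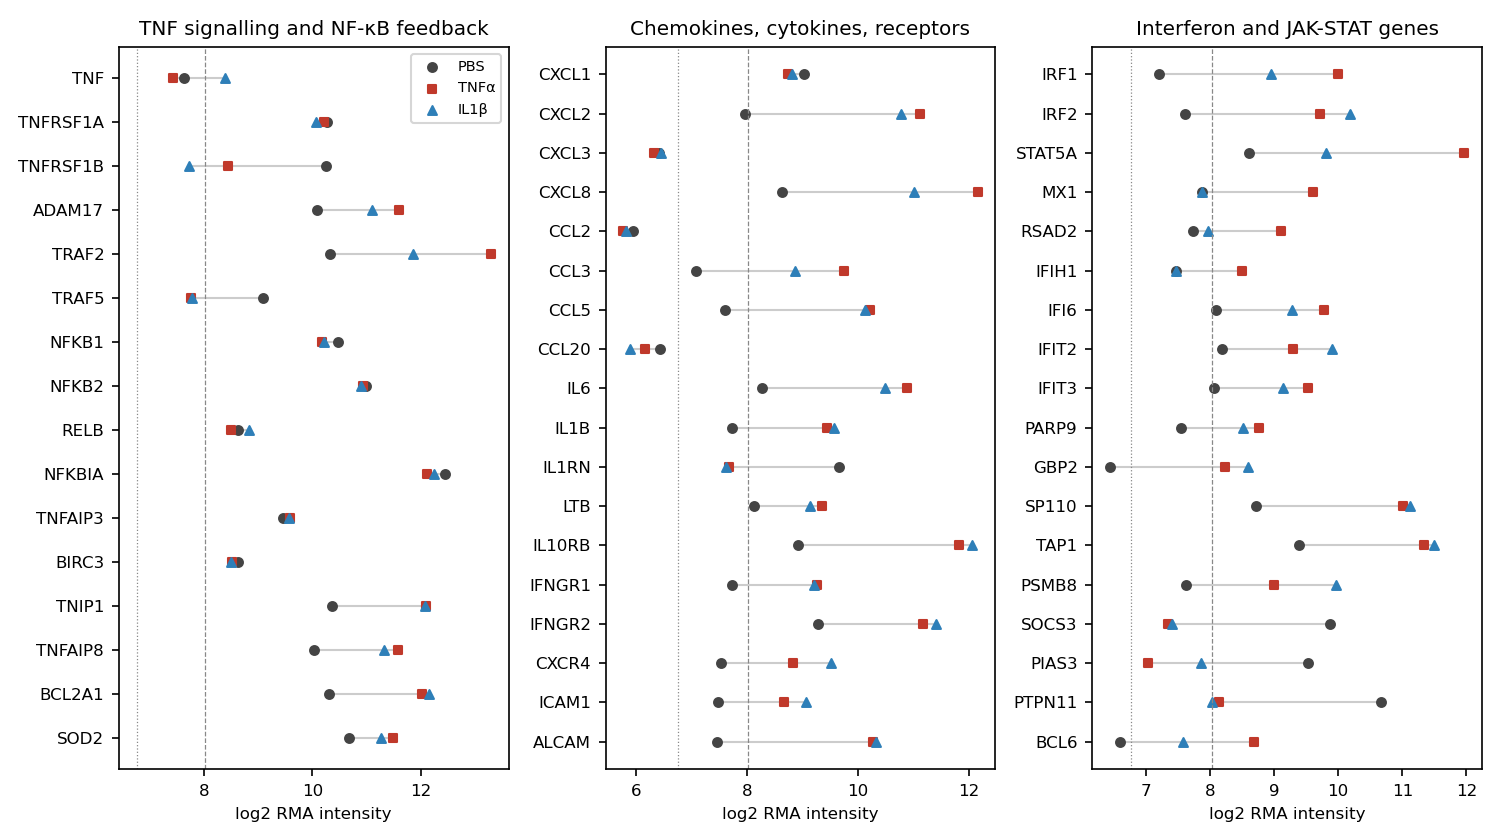
Level of named inflammatory genes (log2 RMA intensity, 1 array each) with PBS (circles), TNFα (squares) and IL1β (triangles), in 3 panels for TNF signalling and NF-κB feedback, for chemokines, cytokines, receptors and adhesion genes, and for interferon and JAK-STAT genes; the dashed line is the floor of 8.02 and the dotted line the near-background limit of the PBS array. CXCL8, CXCL2 and IL6 stand apart from PBS on both cytokine arrays, NFKBIA, TNFAIP3 and BIRC3 nearly coincide on all 3, and MX1, RSAD2 and IFIH1 stand apart with TNFα alone.

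Toll-like and other pattern receptors with their adaptors had 4 higher genes and none lower among 17 at the floor, with a median of 0.10. Of the 4, IRAK3, TLR4 and IFIH1 were under the floor with PBS. IRAK1, a kinase downstream of Toll-like and interleukin 1 receptors, read 3089 with PBS, 8941 with TNFα and 8685 with IL1β, 2.89-fold higher with TNFα. IRAK3, an inhibitory relative found mainly in monocytes, read 70.3 with PBS, 349.6 with TNFα and 142 with IL1β, at least 3.23-fold higher. Both were shared with IL1β. TLR4, the receptor for lipopolysaccharide, read 82.2 with PBS, 413 with TNFα and 66.0 with IL1β, at least 3.82-fold higher with TNFα while IL1β stayed near background. Other probe sets of TLR4 differed by 0.01 and 0.24 and were below the floor, so the difference rests on 1 of 3 sets. IFIH1, the sensor MDA5 of viral double-stranded RNA, read 176 with PBS, 362 with TNFα and 178 with IL1β, 2.06-fold higher, and its IL1β value equalled PBS closely.

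Interferon regulatory factors and STATs had 3 higher genes of 16 at the floor and none lower, with a median of 0.15. Of the 3, IRF1 and IRF2 were under the floor with PBS. IRF1, an activator of interferon response genes, read 147 with PBS, 1023 with TNFα and 495 with IL1β, 6.96-fold higher with TNFα. IRF2, its relative that can act as a repressor on the same sites, read 195 with PBS, 840.4 with TNFα and 1164 with IL1β, 4.31-fold higher. STAT5A, which carries signals of cytokines and growth factors, read 389 with PBS, 4003 with TNFα and 900.5 with IL1β, 10.3-fold higher. IRF1 and STAT5A were highest with TNFα, and IRF2 with IL1β.

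Interferon-stimulated genes had the highest median of the 46 pathway lists, 0.54, against 0.16 with IL1β and -0.03 for all genes with TNFα. Of 37 measured members 29 reached the floor, and 8 of these were higher (27.6%) and none lower, against 3.37% of all genes at the floor. MX1, RSAD2, PARP9 and GBP2 were under the floor with PBS and were counted only through their TNFα value. In all, 32 of the 37 differences were above 0. MX1, a GTPase that blocks viral nucleocapsids, read 236 with PBS, 781 with TNFα and 233 with IL1β, 3.31-fold higher with TNFα and no higher than PBS with IL1β. RSAD2, the antiviral enzyme viperin, showed the same order at 212 with PBS, 548 with TNFα and 249.5 with IL1β, 2.59-fold higher. IFI6, an inhibitor of apoptosis and of viral replication, read 274 with PBS, 873 with TNFα and 622 with IL1β, 3.19-fold higher. Between 2- and 3-fold higher were IFIT2, IFIT3, which bind viral RNA or partner in doing so, and PARP9, an ADP-ribosyltransferase family member. IFIT2 read 292 with PBS, 627 with TNFα and 959 with IL1β. IFIT3 read 268 with PBS, 737 with TNFα and 562 with IL1β. PARP9 read 186 with PBS, 433 with TNFα and 366 with IL1β. IFIT2 was higher with IL1β than with TNFα, so the order of the cytokines was not the same across the group. GBP2, a guanylate-binding protein, read 86.6 with PBS, 300.3 with TNFα and 387 with IL1β, at least 2.78-fold higher. SP110, a nuclear body protein, read 421 with PBS, 2056 with TNFα and 2221 with IL1β, 4.88-fold higher, while its second probe set differed by 0.90. ISG15, the ubiquitin-like modifier, was 0.43 above PBS, and OAS1, a sensor that makes 2-5A, 0.04. The interferon element letters stood in 20 of the 28 list members that the promoter table holds.

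Class I antigen presentation had 2 higher genes, none lower, and a median of -0.04 over 22 measured members. TAP1, a subunit of the peptide transporter, read 666 with PBS, 2596 with TNFα and 2877 with IL1β, 3.90-fold higher with TNFα. PSMB8, an immunoproteasome subunit, read 197 with PBS, 509 with TNFα and 997 with IL1β, but its second probe set read 466 with PBS, 155 with TNFα and 122 with IL1β, a difference of -1.59. The sets of PSMB8 thus oppose each other, and no direction is given for the gene. B2M, the light chain of class I molecules, differed by 0.62.

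The SOCS and JAK-STAT feedback list had 1 higher and 3 lower genes of 10 that reached the floor, with a median of -0.12. SOCS3, which shuts off receptors of the interleukin 6 family, read 934 with PBS, 163 with TNFα and 170.4 with IL1β, 5.74-fold lower with TNFα. PIAS3, an inhibitor of STAT3, read 739 with PBS, 131 with TNFα and 232 with IL1β, 5.63-fold lower. PTPN11, the phosphatase SHP2, read 1625 with PBS, 281 with TNFα and 261 with IL1β, 5.79-fold lower. All 3 were also lower with IL1β, and in SOCS3 and PTPN11 the cytokine arrays nearly coincided. BCL6, a transcriptional repressor, was higher, at 96.4 with PBS, 412 with TNFα and 191 with IL1β, at least 3.81-fold.

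Adhesion and checkpoint molecules had 2 higher genes of 10 at the floor, none lower, and a median of 0.25. Both higher genes were under the floor with PBS. ICAM1, the leukocyte ligand whose promoter is shown above, read 178 with PBS, 405 with TNFα and 533 with IL1β, 2.28-fold higher with TNFα. ALCAM, which binds CD6 on T cells, read 176 with PBS, 1238 with TNFα and 1281 with IL1β, 7.04-fold higher. The endothelial adhesion genes VCAM1 and SELE were near background at 64.1, 78.5 and 68.7 and 34.3, 45.4 and 29.4 with PBS, TNFα and IL1β.

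S100 proteins, small calcium-binding proteins of squamous and myeloid cells, had 4 higher genes of 13 at the floor and none lower, with a median of 0.12. Of the 4, S100A8, S100A12 and S100P were under the floor with PBS. S100A8 had the largest difference of all named genes, at 58.8 with PBS, 5440.4 with TNFα and 1782 with IL1β, at least 50.3-fold. S100A9, its partner in calprotectin, read 389 with PBS, 3983 with TNFα and 2144 with IL1β, 10.2-fold higher. S100A12, made mainly by neutrophils, read 75.7 with PBS, 1669.8 with TNFα and 207 with IL1β, at least 15.4-fold higher. With IL1β the values of all 3 lay between PBS and TNFα. S100P read 156 with PBS, 413 with TNFα and 614 with IL1β, 2.64-fold higher, and was highest with IL1β. The first 3 also belong to the neutrophil and monocyte markers, whose summed level was 12503 with PBS and 31147 with TNFα, and the part of such cells in the result was not tested.

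Other secreted defence proteins were mostly dim. The antimicrobial, antiprotease and acute phase list had 2 higher genes of 10 at the floor and a median of -0.29 over 22 members, which became 0.38 over the members at the floor alone. PTX3, a soluble pattern receptor, read 443 with PBS, 1811 with TNFα and 942 with IL1β, 4.09-fold higher with TNFα. LTF, the iron-binding lactoferrin, read 139 with PBS, 329.5 with TNFα and 295 with IL1β, 2.37-fold higher. LCN2, the siderophore-binding lipocalin that epithelia release, differed by only 0.36. In the complement list C1R, a protease of the classical pathway, was higher at 159 with PBS, 427 with TNFα and 405 with IL1β. SERPING1, which inhibits that protease, was lower at 896 with PBS, 148 with TNFα and 265 with IL1β, 6.05-fold. Protease and inhibitor thus differed from PBS in opposite directions, with TNFα as with IL1β. C3, the central component, had 227, 118 and 287 on the 3 arrays and did not reach the floor with PBS or TNFα. No gene of the prostaglandin and leukotriene list was called among 10 at the floor, and PTGS2, the inducible cyclooxygenase, read 62.0 with PBS, 113 with TNFα and 113 with IL1β.

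Matrix metalloproteinases and ADAMs had 4 higher genes of 9 at the floor, none lower, and a median of 0.38. MMP3, MMP14 and MMP28 were under the floor with PBS and were counted only through their TNFα value. MMP3, the stromelysin that cuts many matrix proteins, read 124 with PBS, 2055 with TNFα and 802 with IL1β, 16.6-fold higher with TNFα. MMP14, a membrane-bound collagenase, read 139.5 with PBS, 1432 with TNFα and 436 with IL1β, 10.3-fold higher. ADAM15, a membrane protease with an integrin-binding domain, read 1059 with PBS, 9375 with TNFα and 8229.9 with IL1β, 8.86-fold higher. MMP3 and MMP14 were over 2 times as bright with TNFα as with IL1β, and ADAM15 was nearly level on both. MMP28, a metalloproteinase of epithelia, read 221 with PBS, 526 with TNFα and 266 with IL1β, while its second set differed by -0.08. The collagenase MMP1 and the gelatinase MMP9 were near background with PBS and TNFα, at 59.9 and 95.4 for MMP1 and 47.9 and 89.5 for MMP9.

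The list of TIMPs and the plasminogen system had 1 higher and 2 lower genes of 12 at the floor, with a median of 0.03. Its lower genes were TIMP2 and SERPINF1. TIMP2, which inhibits metalloproteinases and takes part in activating MMP2 with MMP14, read 1640.0 with PBS, 407 with TNFα and 544 with IL1β, 4.03-fold lower with TNFα. TIMP1 read 496 with PBS, 252 with TNFα and 312 with IL1β, short of 2-fold lower. SERPINF1, the serpin PEDF, which blocks vessel growth, read 565 with PBS, 67.9 with TNFα and 249.8 with IL1β, at least 5.06-fold lower. The urokinase PLAU and its receptor PLAUR were not called, with differences of 0.24 and -0.51.

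Collagens and other matrix proteins had 4 lower genes and none higher among 18 at the floor, with a median of -0.14. TNC, tenascin C, a matrix protein of wounds and tumours, read 951 with PBS, 141 with TNFα and 159.8 with IL1β, 6.75-fold lower with TNFα. BGN, the proteoglycan biglycan, read 1363 with PBS, 214 with TNFα and 1251 with IL1β, 6.36-fold lower, with IL1β close to PBS. CCN2, connective tissue growth factor, read 277 with PBS, 124 with TNFα and 336 with IL1β, 2.23-fold lower, and here the IL1β value was the highest of the 3. HSPG2, the basement membrane proteoglycan perlecan, read 936 with PBS, 458 with TNFα and 587 with IL1β, 2.04-fold lower. Only TNC of the 4 was shared with IL1β.

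Integrins and laminins had 1 higher and 2 lower genes of 21 that reached the floor and a median of 0.00. ITGB1, the β1 chain shared by many matrix receptors, read 616 with PBS, 4252 with TNFα and 3486 with IL1β, 6.91-fold higher with TNFα. ITGA6, the α6 chain of laminin receptors of basal epithelial cells, read 800.4 with PBS, 275 with TNFα and 177 with IL1β, 2.91-fold lower. ITGB2, the β2 chain of leukocyte integrins, read 894 with PBS, 369 with TNFα and 164 with IL1β, 2.43-fold lower. For ITGA6 and ITGB2 the IL1β value was lower still. ITGB2 is not in the neutrophil and monocyte marker list, where 10 genes were called higher and none lower. Of the 27 differences in that list 8 were below 0, and how ITGB2 relates to it was not tested.

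Cadherins, catenins and factors of epithelial-mesenchymal transition, the loss of epithelial for mesenchymal features, had 3 higher and 2 lower genes of 20 that reached the floor, with a median of 0.13. CDH1, the epithelial E-cadherin, read 1209 with PBS, 232 with TNFα and 287 with IL1β, 5.22-fold lower with TNFα. CDH2, the mesenchymal N-cadherin, read 302 with PBS, 1153 with TNFα and 852 with IL1β, 3.82-fold higher. SNAI1, a repressor of CDH1, read 505 with PBS, 2385 with TNFα and 2338 with IL1β, 4.72-fold higher, and TWIST1, another such factor, read 551 with PBS, 1291 with TNFα and 1955 with IL1β, 2.34-fold higher. These 4 genes were shared with IL1β. VIM, the mesenchymal filament vimentin, differed the other way, at 6935 with PBS, 3298 with TNFα and 7326 with IL1β, 2.10-fold lower with TNFα and level with PBS under IL1β. The members therefore did not all differ in the direction that the name of the list would give.

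Cell junctions and the keratin skeleton differed little. No desmosome or hemidesmosome gene was called among 15 at the floor, and JUP, the linker plakoglobin, read 18664 with PBS, 21769 with TNFα and 20762 with IL1β on its brightest set, although a second set differed by 1.19. Tight and gap junction genes had 2 lower and none higher among 16, with a median of -0.02. GJB6, the gap junction protein connexin 30, read 1291 with PBS, 288 with TNFα and 191 with IL1β, 4.48-fold lower with TNFα, and CLDN12, a claudin, read 621 with PBS, 283 with TNFα and 349 with IL1β, 2.19-fold lower. In the keratin and cornified envelope list 1 gene was higher and 1 lower among 28 at the floor, with a median of 0.06. KRT13, a keratin of oesophageal mucosa, read 23485 with PBS, 47862 with TNFα and 37468 with IL1β, 2.04-fold higher. KRT80 read 693 with PBS, 217 with TNFα and 212 with IL1β, 3.20-fold lower. KRT14 and KRT6A, keratins of basal and of activated squamous cells, differed by 0.09 and 0.23.

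Growth and stress signalling gave scattered calls. Of 24 KLF, AP-1 and immediate early factors at the floor 2 were higher and 1 lower, with a median of -0.09. FOSL1 and FOSL2, both Fos-type partners in AP-1, differed in opposite directions. FOSL2 read 363 with PBS, 966 with TNFα and 761 with IL1β, 2.66-fold higher with TNFα, and FOSL1 read 4919 with PBS, 2191 with TNFα and 3002 with IL1β, 2.24-fold lower. KLF2, a zinc-finger factor, read 82.2 with PBS, 270.1 with TNFα and 159 with IL1β, at least 2.50-fold higher. MAP2K4, a kinase that activates JNK, was the only called gene among 22 MAP kinase genes, at 137 with PBS, 279 with TNFα and 157 with IL1β, 2.04-fold higher with IL1β close to PBS. SPRY4, an inhibitor of receptor tyrosine kinase signalling, read 616 with PBS, 299 with TNFα and 136 with IL1β, 2.06-fold lower, and EGFR, the receptor that drives squamous growth, was not called at 8471 with PBS, 10850.3 with TNFα and 10762 with IL1β. The TGF-β and BMP list had 2 lower genes and none higher of 19, with a median of -0.08. BMP4, a bone morphogenetic protein, read 1069 with PBS, 209 with TNFα and 183 with IL1β, 5.12-fold lower. INHBB, an activin subunit, read 269 with PBS, 49.0 with TNFα and 104 with IL1β, at least 2.41-fold lower. AXIN2, a feedback inhibitor and standard target of Wnt signalling, read 1467 with PBS, 219.6 with TNFα and 271 with IL1β, 6.68-fold lower and was the 1 call among 26 Wnt and Notch genes at the floor. BMP4, INHBB, SPRY4 and AXIN2 were all lower with IL1β too.

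Metabolic and stress genes gave scattered calls as well. HIF1A, the oxygen-regulated factor, read 899.9 with PBS, 4713 with TNFα and 3139 with IL1β on the set used, 5.24-fold higher, but 1066, 1026 and 1118 on a second set of like brightness, so its probe sets do not give 1 answer. The hypoxia and glycolysis list had 1 higher and 2 lower genes of 31 that reached the floor, with a median of -0.10. Its lower genes were PDK1 and SLC16A3. PDK1, a pyruvate dehydrogenase kinase, read 843 with PBS, 369 with TNFα and 341 with IL1β, 2.28-fold lower. SLC16A3, the lactate exporter MCT4, read 1281 with PBS, 529.9 with TNFα and 598 with IL1β, 2.42-fold lower. SC5D, an enzyme of late cholesterol synthesis, read 420.0 with PBS, 134 with TNFα and 114 with IL1β, 3.14-fold lower. Amino acid and folate genes had 2 lower genes and none higher of 25, with a median of -0.21. SLC38A5, a carrier of glutamine and other amino acids, had the largest difference of any lower gene, at 1507 with PBS, 92.8 with TNFα and 169 with IL1β, at least 13.5-fold. FOLR1, the folate receptor, read 496 with PBS, 182 with TNFα and 202 with IL1β, 2.72-fold lower, and all 4 of its probe sets were below PBS.

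Genes of DNA replication and repair had 5 lower members and none higher among 33 at the floor (15.2%, against 3.4% of all genes), with a median of -0.13. Of these, 4 lay close to the threshold, between 2.03 and 2.06-fold. They were CHEK1, XPC, XRCC5 and OGG1, the last of which removes oxidised guanine. CHEK1, the checkpoint kinase, read 1827 with PBS, 891 with TNFα and 902 with IL1β. XPC, which finds bulky lesions, read 1699.6 with PBS, 825 with TNFα and 1364 with IL1β. XRCC5, the Ku80 end-joining protein, read 8486 with PBS, 4175 with TNFα and 3728 with IL1β. CHEK1, XPC and XRCC5 passed under 2-fold when the arrays were centred by loess (-0.96, -0.97 and -0.95). No cell cycle gene was called among 37 at the floor, where MCM7, a replicative helicase subunit, read 9941 with PBS, 8401 with TNFα and 10080.5 with IL1β.

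Survival and death genes of the p53, BCL2 and caspase list had 3 higher members and none lower among 29 at the floor, with a median of -0.08. Beside BCL2A1 they were FAS, the death receptor, at 156 with PBS, 319.6 with TNFα and 161 with IL1β, 2.05-fold higher with TNFα and level with PBS under IL1β, and BAD, a pro-death BCL2 relative, at 189 with PBS, 419.6 with TNFα and 378 with IL1β. A second, dimmer set of BAD differed by -0.99, and the mean of both sets was 0.08. CASP8, an initiator caspase, differed by -0.12.

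Of the 46 pathway lists 10 had no called member, among 248 distinct genes at the floor. These were the NF-κB subunits, prostaglandins, desmosomes, unfolded protein response, oxidative phosphorylation, cell cycle, proteasome, splicing factors, cytoskeleton and housekeeping genes. Their medians lay between -0.27 and 0.13, and the widest single difference was 0.99, for the actin-binding protein PFN1. GAPDH, the glycolytic enzyme often used as a reference, read 39484 with PBS, 36678 with TNFα and 34905 with IL1β. Other broad lists had 1 call each. RPL18, the only called gene of 37 ribosomal protein genes at the floor, read 16611 with PBS, 5361 with TNFα and 7821 with IL1β, 3.10-fold lower with TNFα. HSPA2, the only one of 23 heat shock genes, read 599 with PBS, 190.0 with TNFα and 270.0 with IL1β, 3.15-fold lower. ATG12, the only one of 29 autophagy and lysosome genes, read 473 with PBS, 185 with TNFα and 249.8 with IL1β, 2.55-fold lower. HDAC4, a histone deacetylase and the only one of 27 epigenetic regulators, was higher, at 192 with PBS, 409.8 with TNFα and 371 with IL1β, 2.14-fold. Over all 948 distinct list members at the floor 6.65% were higher and 4.01% lower. The lists were chosen with earlier results of these arrays known and centre on inflammation, so this share describes the lists and is no support for them.

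**Figure D4:**
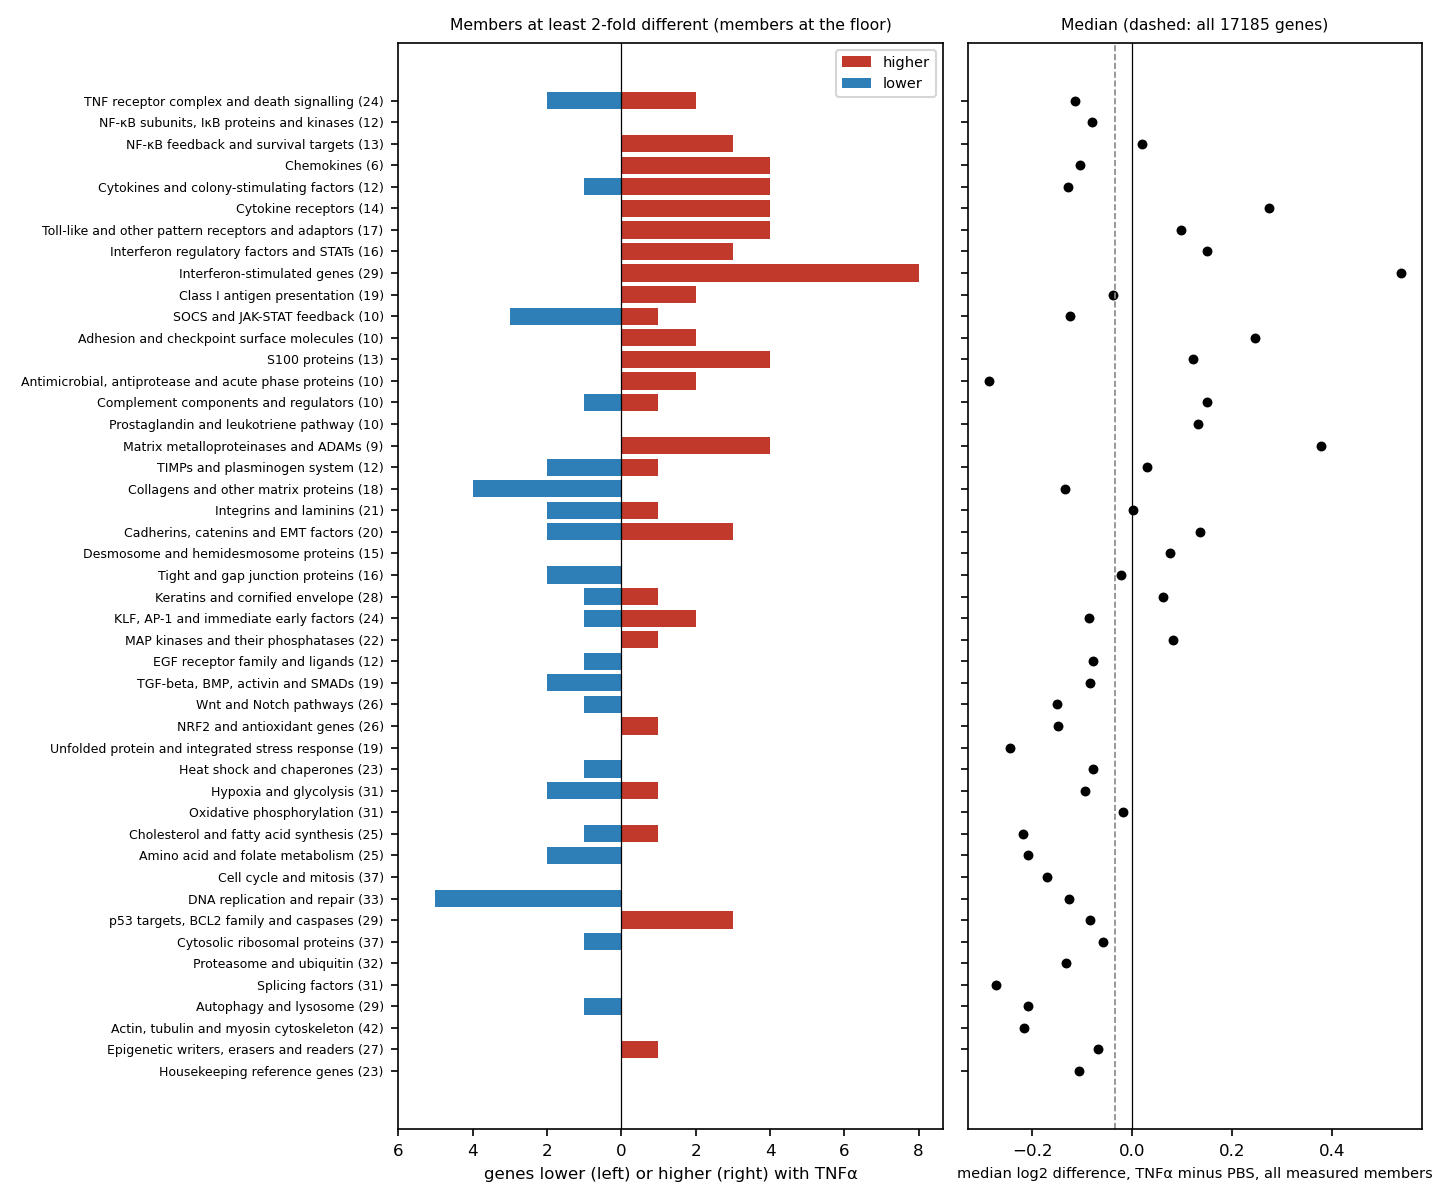
Left, number of members called lower (blue, to the left) or higher (red, to the right) with TNFα in each of 46 pathway lists, with the number of members at the floor in brackets; right, the median log2 difference over all measured members, with a dashed line at the median of all 17185 genes (-0.03). Interferon-stimulated genes have the most higher members (8) and the highest median (0.54), and DNA replication and repair has the most lower members (5).

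Among the 15 largest differences each way were genes outside these pathways. DGKA, a diacylglycerol kinase, read 1619 with PBS, 34915 with TNFα and 21538 with IL1β, 21.6-fold higher with TNFα. IGSF6, an immunoglobulin-type surface protein of myeloid cells, read 77.6 with PBS, 701 with TNFα and 284 with IL1β, at least 6.48-fold higher. The Fc receptors FCGR3A and FCGR3B are near-identical in sequence, so their probes may share signal. FCGR3A read 212 with PBS, 2906 with TNFα and 729.7 with IL1β, and FCGR3B read 55.2 with PBS, 1649 with TNFα and 925 with IL1β. CYBB, the phagocyte oxidase subunit, read 44.3 with PBS, 588 with TNFα and 294 with IL1β, at least 5.43-fold higher. FCN1, a lectin of monocytes, read 118 with PBS, 1439 with TNFα and 455 with IL1β, 12.2-fold higher. Among lymphocyte and pan-leukocyte markers PTPRC, the pan-leukocyte phosphatase CD45, read 91.5 with PBS, 1295 with TNFα and 1046 with IL1β, near background with PBS. CXCR2, a receptor for CXCL8 on neutrophils, and AIF1, a macrophage protein, were 7.30- and 6.45-fold higher. In these leukocyte genes the PBS value was the lowest of the 3 and the TNFα value the highest. With S100A8, S100A9, S100A12 and FCGR2A, 10 of the 27 neutrophil and monocyte markers were higher and none lower, and 9 of the 10 were shared with IL1β. These 10 were 66.7% of the 15 members at the floor, against 3.37% of all genes at the floor. S100A8, S100A12, FCGR3A, FCGR3B, FCGR2A, CYBB and FCN1 were under the floor with PBS and were counted only through their TNFα value. The share is therefore no test of the list, and 8 of the 27 differences were below 0.

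The remaining marker lists gave few calls. In the lymphocyte and pan-leukocyte list CD53, a leukocyte tetraspanin, was higher beside PTPRC, at 136 with PBS, 411 with TNFα and 286 with IL1β, and LCK, a kinase of T cells, was lower, at 362 with PBS, 105 with TNFα and 36.0 with IL1β. Its median was 0.39 over 24 members and -0.24 over those at the floor. The cardiac and skeletal muscle list had 2 higher genes, none lower and a median of 0.23. They were the troponins TNNI3, at 2445 with PBS, 5078 with TNFα and 3305 with IL1β, and TNNT3, at 406 with PBS, 869.9 with TNFα and 745 with IL1β, both close to 2-fold. The brightest cardiac genes were not called, MYH6 differing by 0.64 and the slow myosin MYH7 by 0.43. Of the squamous markers KRT13 was higher and CDH1 lower, with a median of 0.10. Erythroid and platelet, fibroblast, endothelial, hepatocyte, testis germ cell, and lung and gut lists had 1 lower gene each and none higher. These genes were the embryonic globin HBZ, FBLN2, the endothelial adhesion protein PECAM1 at 419 with PBS, 127 with TNFα and 274 with IL1β, the thyroid hormone carrier TTR at 265 with PBS, 113 with TNFα and 286 with IL1β, PRM2, and VIL1, the microvillus protein villin, at 714 with PBS, 285 with TNFα and 231 with IL1β. In the neural and glial list SLC17A7, a vesicular glutamate transporter, was 2.02-fold higher and no gene was lower.

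On the lower side several unrelated proteins stood beside SLC38A5. PROX1, a homeobox factor, read 397 with PBS, 47.0 with TNFα and 64.3 with IL1β, at least 3.55-fold lower. FGD5, an exchange factor for CDC42, read 385 with PBS, 45.1 with TNFα and 59.9 with IL1β, at least 3.45-fold lower. RNF2, a ubiquitin ligase of Polycomb repressive complex 1, read 1986 with PBS, 291 with TNFα and 353 with IL1β, 6.84-fold lower. SLC43A3, a nucleobase transporter, read 1720.1 with PBS, 251 with TNFα and 507 with IL1β, 6.86-fold lower. OLFML2A, an olfactomedin-type secreted protein, read 1765 with PBS, 286 with TNFα and 472 with IL1β, 6.16-fold lower. GLS2, the liver-type glutaminase, read 324 with PBS, 49.3 with TNFα and 79.3 with IL1β, at least 2.90-fold lower. PRKACG, a testis-type catalytic subunit of protein kinase A, read 2610.3 with PBS, 413 with TNFα and 309 with IL1β, and PRM2, a sperm protamine, read 1289 with PBS, 198 with TNFα and 133 with IL1β; they were 6.32- and 6.50-fold lower. Each of these genes was at least 2-fold lower than PBS with IL1β as well.

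The IL1β array marked 164 of the 317 higher genes (51.7%) and 171 of the 320 lower genes (53.4%) as differing at least 2-fold from PBS in the same direction. Another 88 higher and 77 lower genes lay between, 6 and 5 lay on the other side of PBS by at least 0.5 log2, and 59 higher (18.6%) and 67 lower genes (20.9%) had an IL1β value close to PBS. For this last class, with PBS and IL1β alike, the 12 largest each way were listed after their values had been seen. The higher ones were led by SLC8A1, a sodium-calcium exchanger of heart muscle, at 89.0 with PBS, 841 with TNFα and 80.6 with IL1β, at least 7.77-fold. NCR1, a receptor of natural killer cells, read 47.7 with PBS, 406 with TNFα and 66.8 with IL1β. FCGR2A, an Fc receptor of myeloid cells, read 93.0 with PBS, 789.6 with TNFα and 123 with IL1β. Of these 12 higher genes 10 were near background with PBS, and EYA4, a transcriptional co-activator at 180.3 with PBS, 656 with TNFα and 178 with IL1β, and TRAPPC13, a vesicle tethering subunit at 150.5 with PBS, 519 with TNFα and 208 with IL1β, were not. The lower ones included bright genes. LGALS3, the β-galactoside-binding galectin 3 of epithelia and macrophages, read 3757 with PBS, 918 with TNFα and 3219 with IL1β, 4.09-fold lower with TNFα. PLIN2, a coat protein of lipid droplets, read 1816 with PBS, 339 with TNFα and 1586 with IL1β, 5.36-fold lower, and FBLN2, the matrix protein fibulin 2, read 1351 with PBS, 409 with TNFα and 1372 with IL1β, 3.30-fold lower. These 3 were bright with PBS and with IL1β. BST1, an ectoenzyme related to CD38, read 669.5 with PBS, 215 with TNFα and 727 with IL1β. SLC22A5, the carnitine transporter, read 797 with PBS, 257 with TNFα and 692 with IL1β. DEPTOR, an inhibitor of mTOR, read 365 with PBS, 119.9 with TNFα and 447 with IL1β, and its IL1β value was the highest. OPA1, which fuses mitochondrial inner membranes, read 268 with PBS, 65.3 with TNFα and 309 with IL1β, at least 2.41-fold lower. That the TNFα value stood apart while IL1β lay within 0.5 log2 of PBS follows from how these genes were chosen.

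**Figure D5:**
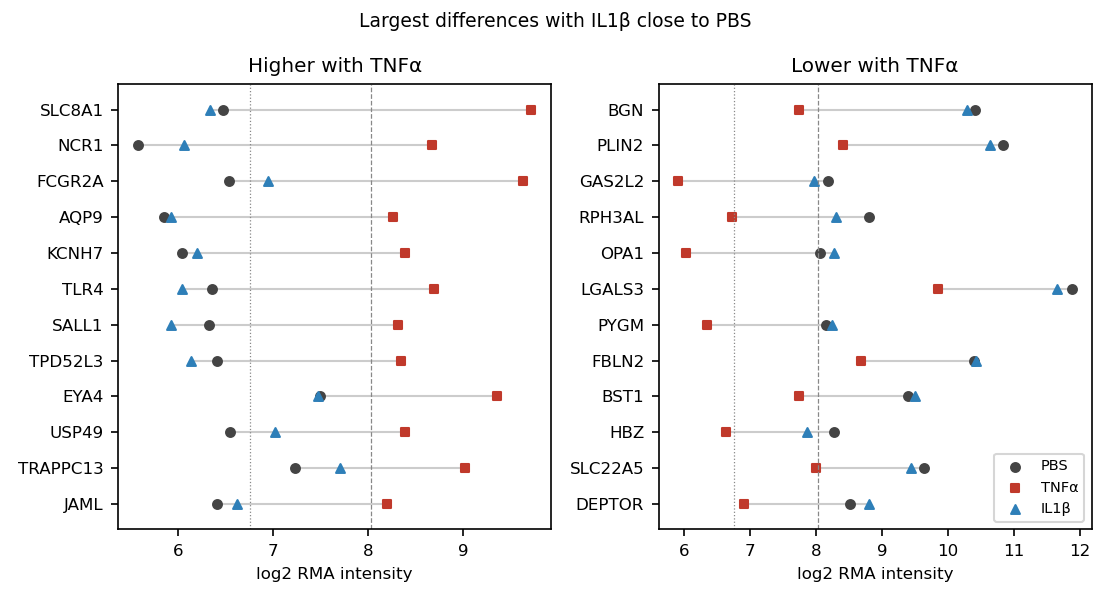
Level (log2 RMA intensity, 1 array each) with PBS (circles), TNFα (squares) and IL1β (triangles) of the 12 higher (left) and 12 lower (right) genes with the largest TNFα difference among those whose IL1β value lay within 0.5 log2 of PBS; the dashed line is the floor of 8.02 and the dotted line the near-background limit of the PBS array. Most higher genes start below the dotted line, whereas LGALS3, PLIN2, FBLN2 and BGN have PBS values well above the floor.

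Some called genes could be read on another probe set, which did not always follow. Among the higher genes 15 second sets reached the floor, of which 9 pointed the same way and 6 did so by 2-fold or more. Among the lower genes there were 8, of which 6 pointed the same way and 3 by 2-fold or more. Only 1349 of the 17185 genes have more than 1 set, so most differences cannot be checked in this way.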

How the data were processed

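RNA of KYSE410 cells given PBS, TNFα, IL1β or LPS was measured on 1 NimbleGen array per condition, per the labels. The authors deposited RMA intensity values on a linear scale, 1 per probe set, and a count of probe pairs in each set, per the file headers. Software, settings and genome build are not given in the sources used. RMA usually equalises the distributions of arrays, which would remove a change shared by most genes. The deposited series table was equal to the per-array intensity values within 0.0001 for all 45033 probe sets.

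Transcript accessions were matched without versions to the RefSeq gene table of GRCh38.p14, which supplied symbols and no coordinates. A single symbol was found for 18866 (41.9%) of 45033 probe sets and none for 26167, which left 17185 genes, each represented by its brightest set over the 4 arrays. The LPS array entered only that choice and the floor. Differences are of log2 intensity. No test was made. The script for the size rule was run on simulated data first. Columns of no mapped sample numbered 0.

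The members and the 46 pathway and 11 marker lists were chosen with earlier results of these data known. Named were the 15 largest differences each way (without uncharacterised symbols and genes whose probe sets differ in sign), up to 4 called genes of each list, 24 anchor genes at any value and the brightest gene of lists with no call. Some genes that this rule selects are not reported here. Other genes in the text (for example VIM, RSAD2, IFIT2, IL32, OGG1, KRT5, MYH6, RIPK1 and the 12 largest each way with IL1β close to PBS) were chosen after their values were seen. Promoter letters were searched in the RefSeq promoter table of GRCh38.p14, which held 261 of the 317 higher and 233 of the 320 lower genes.

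Alternatives were a floor at the 75th percentile or none, 1.5-fold and 3-fold thresholds, the mean of probe sets, loess, quantile normalization, an offset, the series table, lists limited to members at the floor, counts without other-cell markers, and unnamed probe sets. The tools were pandas 2.3.3 and numpy 2.4.6 under Python 3.11.15, with loess from statsmodels 0.14.6 and plots from matplotlib 3.10.9.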

Additional observations from a re-analysis of the deposited data

Results flagged for a closer look

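OGG1, the glycosylase that removes oxidised guanine from DNA, stood out because the cytokines differed from PBS in opposite directions. It read 360.3 with PBS, 178 with TNFα and 756 with IL1β, a log2 difference of -1.02 with TNFα and 1.07 with IL1β. With 1 array per condition the difference between the cytokines was not tested.

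Probe sets with no gene name lie outside the comparisons above, and many of them met the same size rule. Of 14075 unnamed sets at the floor 553 were higher with TNFα (3.93%) and 413 were lower (2.93%), beside 3.37% and 3.4% of the named genes.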

How the results depend on the processing

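No paired analysis was possible because each condition has 1 array, and for the same reason no replicate could be left out. The counts depended on the floor and the fold. With no floor 684 genes were higher and 666 lower (258 and 309 shared with IL1β), with a floor at the 75th percentile 108 and 96 (74 and 63 shared), at 1.5-fold 896 and 1097 (476 and 567 shared), and at 3-fold 118 and 109 (61 and 69 shared). Unnamed probe sets, an alternative added after seeing the data, gave 553 higher and 413 lower. Other settings stayed within 1.5 times of 317 and 320: the mean of all probe sets (295 and 305), loess centring (345 and 297), a repeated quantile normalization (346 and 307) and an offset of 50.9 before log2 (231 and 231, of which 231 and 230 were called without it). Without the markers of other cell types 302 genes were higher. Over members at the floor alone the antimicrobial list turned from -0.29 to 0.38 and the lymphocyte list from 0.39 to -0.24. PSMB8 turned to -0.11 with the mean of its probe sets. Of 165 named genes 13 no longer reached 2-fold with the offset, among them ICAM1, FAS, IFIH1, CCN2 and MAP2K4, 4 with loess and 3 with quantile normalization. With the mean of probe sets 7 no longer met the size rule, of which EYA4, FOLR1, KCNH7 and TPD52L3 still differed over 2-fold but lay under the floor. Signal over background limits the dim genes, since 28.0% of genes with PBS and 28.6% with TNFα were near background.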
